A study of Mus musculus with 26 samples.

Results

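The C-type lectin genes of macrophages examined here were Clec4d, Clec4e, Clec4n, Clec7a, Clec5a, Clec12a, Clec10a and Clec2d, and the measurements were chromatin immunoprecipitation sequencing (ChIP-seq) peaks at and around them. The cells were RAW264.7, a mouse macrophage-like line, carrying a doxycycline-inducible construct for GFP or for HA-tagged Nur77. Every group received doxycycline at 50 ng/ml for 18 h, including the GFP controls, and was then left untreated or given lipopolysaccharide (LPS) at 500 ng/ml for 1 h. HA ChIP was made in the Nur77 line only, with 3 untreated and 3 LPS libraries, and without a GFP counterpart. The other targets were H3K27ac, the acetyl mark on lysine 27 of histone H3, and Pol II, RNA polymerase II. Each of these was profiled in 8 libraries, 2 for each of untreated GFP, LPS-treated GFP, untreated Nur77 and LPS-treated Nur77. Each construct is represented by 1 stable line, so construct and line cannot be told apart. Nothing in the labels says that replicates came from separate cultures, so p-values measure the spread between these libraries only.

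For each target the called peaks of all libraries were merged into regions. A region was taken when it overlapped a member gene's span extended by 1 kb, or, for HA and H3K27ac, when it lay between genes within 50 kb with a member as its nearest gene. This gave 52 regions of 166353 in the whole series, with 20 of 42505 for HA, 9 of 46133 for Pol II and 23 of 77715 for H3K27ac. The farthest region lay 18499 bp from its gene, and 3 Pol II regions between genes fell outside the rule. The 8 genes had been chosen because earlier results from these libraries had shown a Pol II difference between the lines after LPS at Clec10a and Clec2d, and an HA site of Clec5a called only before LPS. Those values are given here as descriptions with no test. A single Pol II region and a single H3K27ac region covered both Clec4d and Clec4e, so the signal of these neighbours cannot be separated, and the Clec5a and Clec7a regions also overlapped Olfr460 and Gm45969.

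C-type lectin receptors are membrane proteins of myeloid cells that bind sugars, lipids and other ligands through a shared fold. Clec7a (Dectin-1), Clec4n (Dectin-2), Clec4d (MCL) and Clec4e (Mincle) recognise fungal and mycobacterial cell wall components and signal through the kinase Syk, with the Fc receptor gamma chain Fcer1g as the partner of Clec4n and Clec4e. Clec5a (MDL-1) pairs with the adaptor Tyrobp, Clec12a carries an inhibitory motif, Clec10a binds galactose-type sugars, and Clec2d is a ligand of an inhibitory receptor of natural killer cells. Nur77 (Nr4a1) is a nuclear receptor encoded by an immediate early gene, and it binds DNA as a monomer at the motif known as the NBRE. Pol II ChIP reports polymerase on the gene, and H3K27ac marks active promoters and enhancers.

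Depth and library checks bear on all that follows. The libraries held 6.41 to 18.2 M tags for HA, 11.9 to 23.1 M for Pol II and 22.3 to 28.4 M for H3K27ac. The 2 HA libraries numbered 3 were called with narrow peaks (342 and 427 bp, against 826 to 1017 bp in the other 4), and untreated Nur77 Pol II library 1 had an estimated fragment length of 1550 bp against 174 to 318 bp in the other 7. All 10 macrophage marker genes had a Pol II region and an H3K27ac region in every library, with summed Pol II tags of 24023 to 39908. Natural killer cell and fibroblast marker genes had no region of either target, while 2 of 5 T cell genes had both in every library (summed Pol II tags of 753 to 1118). Of 6 B cell genes, 3 had a Pol II region (summed tags of 266 to 438) and 2 an H3K27ac region. The part of these signals in the results was not tested.

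HA-Nur77 sites were found at or near all 8 genes. Of the 20 sites, 9 were called in all 6 libraries (45%), against 26.4% of all HA regions, and 14 lay over a gene while 6 lay between genes. Promoters were taken as the 250 bases before a start site. An HA site was present over that of 4 of the 6 genes with a matched promoter sequence, which Clec4n and Clec10a lacked. The Clec12a site was called in all 6 libraries with its centre 88 bases upstream of the start, and the Clec4e site in 5 libraries with its centre 49 bases upstream. Clec4d and Clec2d each had a promoter site in LPS library 1 only. Of the 20 sites, 3 lay over input calls. These were the Clec4d promoter site (6.78 to 10.5 input tags), the site called throughout over Clec5a (12.4) and that between genes beyond Clec12a (7.85). The RefSeq promoter sequences below (mouse GRCm38.p6, the build of the files, named mm10 there) are shown because an HA site covered them. They are those of the 2 matched genes with the most repeated promoter calls and of Clec2d. Capitals mark matches to searched motifs. Promoter sequences were matched for 6 of the 8 genes.
Clec4e: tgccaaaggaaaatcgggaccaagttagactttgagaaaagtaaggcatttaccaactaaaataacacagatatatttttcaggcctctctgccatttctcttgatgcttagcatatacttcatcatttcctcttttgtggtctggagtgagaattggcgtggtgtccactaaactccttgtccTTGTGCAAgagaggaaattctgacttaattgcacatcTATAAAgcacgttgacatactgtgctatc
Clec12a: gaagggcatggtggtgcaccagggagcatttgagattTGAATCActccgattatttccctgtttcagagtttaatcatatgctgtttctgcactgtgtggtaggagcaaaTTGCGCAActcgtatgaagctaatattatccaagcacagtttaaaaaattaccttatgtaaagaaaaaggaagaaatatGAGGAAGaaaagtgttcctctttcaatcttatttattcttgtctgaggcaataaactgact
Clec2d: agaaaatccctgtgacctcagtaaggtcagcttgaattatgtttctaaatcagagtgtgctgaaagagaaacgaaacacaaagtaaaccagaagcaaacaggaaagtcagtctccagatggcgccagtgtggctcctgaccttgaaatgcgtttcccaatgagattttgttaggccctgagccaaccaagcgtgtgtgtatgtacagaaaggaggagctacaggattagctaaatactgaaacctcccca
The Clec4e window (chr6:123289872-123290121, minus strand) held a C/EBP match, TTGTGCAA, from -66 to -59 and a TATA match, TATAAA, from -29 to -24, in bases from the start site. In the Clec12a window (chr6:129349994-129350243, plus strand) there was an AP-1 match, TGAATCA, at -213 to -207, a C/EBP match, TTGCGCAA, at -140 to -133, and a PU.1 match, GAGGAAG, at -61 to -55. The Clec2d window (chr6:129180365-129180614, plus strand) held none of the motifs. The NBRE was searched as AAAGGTCA and the CRE as TGACGTCA. For AP-1 the letters were TGANTCA. The PU.1 motif was GAGGAAG and that of C/EBP was TTNNGCAA. The NF-kB consensus contains degenerate letters and is given by name alone. All of these were searched on both strands. The TATA motif, TATAAA, was searched on the gene's strand only. No overlap between matches occurred in these windows. Among 32841 promoter windows of the same length, the share with a match was 1.34% for the NBRE, 6.75% for AP-1, 1.55% for the CRE, 10.6% for PU.1, 9.57% for C/EBP, 3.9% for NF-kB and 7.59% for TATA. None of the member windows held an NBRE match, which says only that these letters are absent from them.

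The strongest HA site of the group lay between genes, 18.5 kb from Clec10a (chr11:70189335-70190351). Its normalised tag counts, the authors' tags scaled to 10 M per library, were 788, 367 and 307 in the untreated libraries and 775, 398 and 268 after LPS. The ranges overlapped almost completely, and library 1 was the highest in both conditions. Over Clec10a itself a weaker site (chr11:70166050-70167071) had 48.3, 55.5 and 20.3 tags untreated and 19.6 and 38.1 after LPS, with no call in LPS library 3. Pol II was also called over the strong site, at 513 and 498 tags in untreated GFP cells, 1301 and 783 in GFP cells after LPS, 1020 and 813 in untreated Nur77 cells, and 1620 and 1588 in Nur77 cells after LPS. That Pol II region lay between genes and is outside the group. An H3K27ac region over the strong site (chr11:70182339-70202524) was called in all 8 libraries. Its nearest gene was Slc16a11, at 11171 bp, so it is outside the group too. It had 1372 and 1473 tags in untreated GFP cells and 1570 and 1566 after LPS. Nur77 cells had 2275 and 2318 untreated and 2219 and 2555 after LPS.

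Clec4n carried the second strongest site that was called throughout (chr6:123243892-123244908). It had 264, 140 and 137 tags untreated and 315, 225 and 155 after LPS. Each numbered library was higher after LPS, while the ranges overlapped. A second Clec4n site (chr6:123237112-123238133) was called in the 3 LPS libraries only, at 31.9, 19.8 and 9.32 tags. Sites between genes near Clec4n (chr6:123227218-123228234 and chr6:123252438-123253454) were called in all 6 libraries. The first had 182, 225 and 38.7 tags untreated and 99.3, 242 and 39.2 after LPS, and the second 149, 164 and 64.9 untreated and 158, 186 and 72.1 after LPS.

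The Clec4e promoter site (chr6:123289412-123290428) had 212, 218 and 69.7 tags untreated, and 310 and 118 tags in LPS libraries 1 and 3. No peak was called in LPS library 2, so it was not tested. At Clec12a, the promoter site (chr6:129349648-129350664) had 99.8, 195 and 37.6 tags untreated and 143, 216 and 39.5 after LPS. The lowest value in each condition was that of library 3. A site between genes beyond Clec12a (chr6:129369147-129370276) had 90.4, 75.1 and 48.3 tags untreated and 115, 75.9 and 37.3 after LPS. Clec7a, the beta-glucan receptor, had a site centred 1190 bases inside the gene from its start (chr6:129471081-129472097), at 40.5, 63.3 and 19.5 tags untreated and 52.2, 56.1 and 13.7 after LPS. This was the weakest of the 9 sites called throughout.

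Over Clec5a a site (chr6:40576029-40577045) had 105, 196 and 58.3 tags untreated and 165, 269 and 63.0 after LPS. Another site over the gene (chr6:40573423-40574439) was called in the 3 untreated libraries at 105, 175 and 30.6 tags and in none after LPS. This pattern of calls is among the values that chose the group. A missing call leaves no tag value, so it does not show that signal was absent. The site between genes (chr6:40594662-40595707), had 154, 242 and 42.8 tags untreated and 212, 296 and 66.3 after LPS, higher after LPS in each numbered library.

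**Figure D1:**
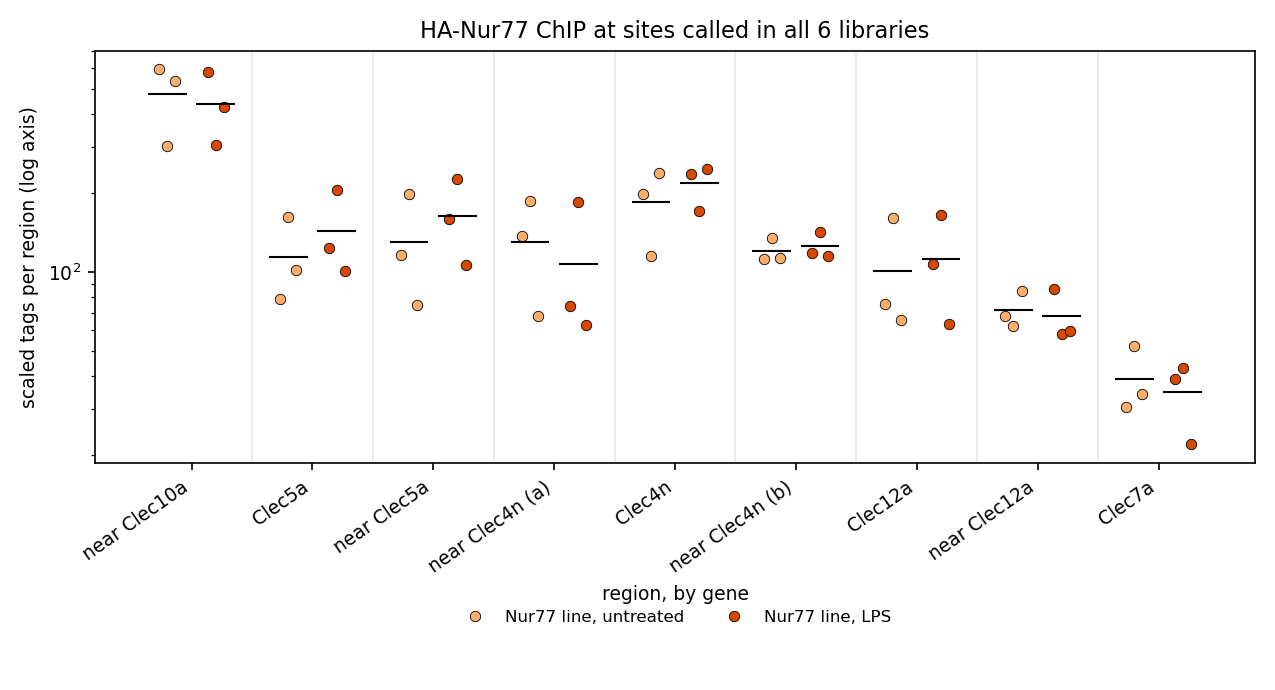
HA-Nur77 tags per site after scaling between libraries (log axis) at the 9 sites called in all 6 libraries; points are libraries, lines are means of 3, and letters order several sites of a gene along the chromosome. Untreated and LPS libraries overlapped at every site, and the site near Clec10a was the highest.

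The question of whether LPS changed HA signal was asked at these 9 sites with limma on log2(tags + 1), with p-values adjusted by the Benjamini-Hochberg method over all 11234 tested HA regions and a threshold of 0.05. Log2 changes from limma below are on this scale and carry standard errors. None of the 9 sites passed (0 also at an unadjusted p of 0.05), against 3.28% of all tested regions higher and 1.35% lower. Changes ran from -0.33 ± 0.46 near Clec4n to 0.38 ± 0.39 near Clec5a. Same-numbered HA libraries deviated together, and with the number as a block 2 sites were called higher: the one near Clec5a (0.38 ± 0.13, adjusted p = 0.016) and the one over Clec4n (0.29 ± 0.12, adjusted p = 0.05, just under the threshold before rounding). With the block 4536 of the 11234 tested regions were called, so 2 of 9 is no larger a share than that of all regions. Without both libraries numbered 3 and with the block, 2 were higher and 1 lower, a different set in that the site near Clec5a was not among them.

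HA sites of the group mostly lay inside the other marks. Of the 9 sites called throughout, 8 (88.9%) overlapped an H3K27ac region present in all 8 libraries, against 78.2% of all such HA sites, and 6 (66.7%) overlapped a Pol II region present in all 8, against 53.2%. For the 11 sites called in fewer libraries the shares were 90.9% against 53.4% for H3K27ac and 72.7% against 36.4% for Pol II. These shares are descriptions, since several sites share a single broad region.

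After LPS, Pol II rose over Clec4d and Clec4e and over Clec12a in both lines, and rose over Clec5a in the Nur77 line. Clec10a tags were lower after LPS in both lines, a description only, since its LPS libraries chose it. Of 9 Pol II regions, 6 were called in all 8 libraries and entered the fit (66.7%, against 37% of all Pol II regions). Clec10a and Clec2d were among them, as descriptions only. In the GFP line 2 were higher, with 10% of all 17081 tested regions higher and 8.55% lower. Clec10a was lower there, which is not set against these shares. In the Nur77 line 3 were higher and none lower, with 15.2% higher and 15% lower over all regions. The median change of the 6 was 0.46 in GFP and 0.80 in Nur77 cells, beside 0.01 over all regions in both.

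Over Clec4d and Clec4e (chr6:123251173-123295008) the Pol II tags were 5907 and 4230 in untreated GFP cells, 28699 and 25053 in GFP cells after LPS, 4064 and 2996 in untreated Nur77 cells, and 30399 and 31480 in Nur77 cells after LPS. Every LPS library exceeded every untreated library, and no other Pol II region of the group came near these counts. The log2 change was 2.58 ± 0.32 in the GFP line (adjusted p = 0.0018) and 3.56 ± 0.32 in the Nur77 line (adjusted p = 3.5e-04). Input libraries had weak calls inside this region of 43836 bp, at 6.41 to 10.9 tags, and inside the Clec5a region at 6.72 to 12.4 tags. Per kilobase of called length the means went from 138 to 647 tags in GFP cells and from 101 to 723 in Nur77 cells.

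Clec12a (chr6:129349419-129355358) had 58.9 and 157 Pol II tags in untreated GFP cells, 250 and 409 after LPS, 133 and 138 in untreated Nur77 cells, and 431 and 472 after LPS. The LPS libraries were above the untreated ones in both lines. Its change was 1.88 ± 0.39 in GFP (adjusted p = 0.014) and 2.14 ± 0.39 in Nur77 cells (adjusted p = 0.0055). The mean called length also grew, from 2.07 to 4.88 kb in the GFP line, and as tags per kilobase the GFP change was 0.68 ± 0.30 and missed the threshold (adjusted p = 0.21). It missed it too without GFP LPS library 2 (1.57, adjusted p = 0.067).

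Over Clec5a (chr6:40572615-40587237) the Pol II tags were 351 and 826 in untreated GFP cells, 768 and 1648 after LPS, 634 and 751 in untreated Nur77 cells, and 1294 and 2054 after LPS. In these tags the GFP groups overlapped and the Nur77 groups did not. After scaling between libraries the GFP groups did not overlap either, at 357 and 751 untreated and 852 and 1715 after LPS. The change passed in the Nur77 line (1.65 ± 0.44, adjusted p = 0.025) and not in the GFP line (1.22 ± 0.44, adjusted p = 0.093), where the fit with the replicate block called it higher (adjusted p = 0.001). That fit called 6063 of the 17081 regions in the GFP line and 8184 in the Nur77 line. The Nur77 call was lost without untreated library 1 (1.45, adjusted p = 0.12), without untreated library 2 (1.86, adjusted p = 0.07), without LPS library 2 (1.32, adjusted p = 0.12) and with no scaling between libraries (1.24, adjusted p = 0.056).

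Clec10a (chr11:70165071-70175830) had 311 and 151 Pol II tags in untreated GFP cells and 52.5 and 35.5 after LPS. Untreated Nur77 cells had 1834 and 947, and Nur77 cells after LPS 662 and 418. LPS libraries lay below the untreated ones within each line. The LPS libraries here are also those whose difference between the lines chose this gene, so the changes below are not independent of that choice. The GFP change was -2.14 ± 0.45 and the Nur77 change was -0.91 ± 0.45, given as descriptions. With the block the Nur77 change was -0.91 ± 0.16, and with no scaling between libraries it was -1.32. In the GFP line the called length shrank from 6.38 to 1.36 kb and the mean density was 35.1 and 33.4 tags per kb, and the log2 change of tags per kilobase, fitted with its own scaling, was 0.10 ± 0.32. Without untreated library 1 the GFP change was -1.54, and without LPS library 2 it was -1.82.

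Clec4n did not pass in either line. The Clec2d change was -0.30 ± 0.69 in the GFP line and -1.32 ± 0.69 in the Nur77 line. These 2 values are descriptions, since the LPS libraries of Clec2d chose it too. The lower-coordinate Clec4n region (chr6:123226751-123228858) had 27.8 and 22.3 tags in untreated GFP cells, 12.7 and 14.1 after LPS, 42.1 and 32.2 in untreated Nur77 cells, and 36.7 and 19.4 after LPS. A second Clec4n region (chr6:123243114-123246306), over the strong HA site, was called in 3 libraries, at 7.34 tags in GFP LPS library 1 and 69.9 and 32.5 in the Nur77 LPS libraries. No untreated library had a call there. The Clec7a region was missing from 1 untreated Nur77 library, so it was not tested, and its 7 values ran from 7.17 to 56.9 tags. Clec12a also had a small region in Nur77 LPS library 2 only (10.5 tags).

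**Figure D2:**
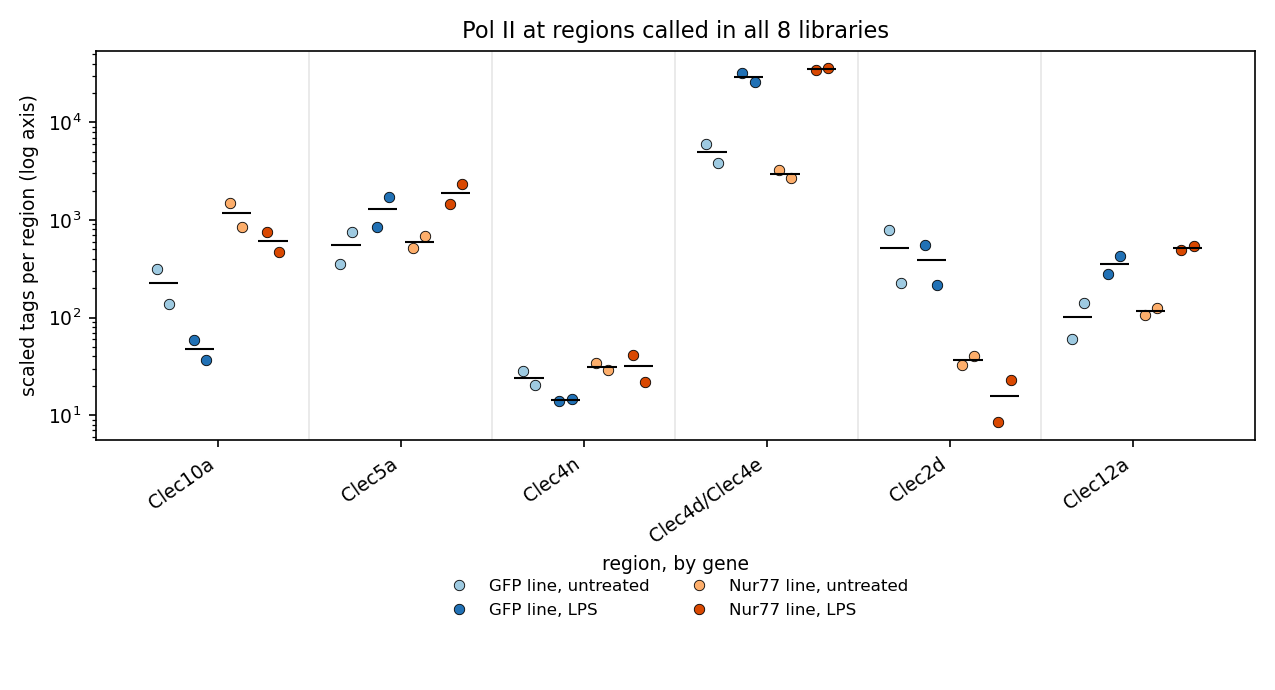
Pol II tags per region after scaling between libraries (log axis) at the 6 regions called in all 8 libraries; points are libraries, lines are means of 2. Clec4d/Clec4e, Clec12a and Clec5a were higher in every LPS library than in the untreated libraries of the same line. Clec10a and Clec2d were apart between the lines.

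The profile over the 8 Pol II libraries most like that of Clec4d and Clec4e was that of Nod2 (Pearson r = 0.9972), a sensor of bacterial cell wall fragments, followed by Msra (0.9968) and Galnt7 (0.9958). For Clec12a the nearest were Slc9a4 (0.9956), Mgrn1 (0.9923) and Ap1s3 (0.9914), and for Clec5a Btbd1 (0.9886), Atad1 (0.9883) and a region with Rpsa (0.988). Clec10a was most like a region with Vps4a (0.9739), then Gm41046 (0.9724) and Gm34931 (0.9707). For Clec2d they included Sike1 (0.9844) and Hdac4 (0.9755), and for Clec4n Atp8a1 (0.9682), Gm33171 (0.946) and Cpsf4 (0.9423). These coefficients describe likeness over 8 libraries in 4 groups, with the best taken from all regions over genes.

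After LPS, H3K27ac rose at 5 regions of the group in both lines and fell over Clec10a in both. Of 23 regions, 10 were called in all 8 libraries (43.5%, against 34.9% of all). Input calls lay inside 4 of the 23, among them those of Clec4d with Clec4e (6.41 to 10.9 tags) and Clec5a (6.72 to 12.4 tags). In the GFP line 5 were higher after LPS and 2 lower, where 27.5% of all 27094 tested regions were higher and 25.5% lower. In the Nur77 line 5 were higher and 1 lower, beside 28.5% and 27.1%. The median change was 0.52 and 0.65, against 0.01 and 0.02 for all regions. The 5 that rose were the same in both lines: Clec4d with Clec4e, Clec12a at its start, Clec5a, the region near Clec5a, and the higher-coordinate Clec4n region.

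Over Clec4d and Clec4e (chr6:123251022-123293530) the H3K27ac tags were 3616 and 3868 in untreated GFP cells, 5819 and 5557 after LPS, 3074 and 2965 in untreated Nur77 cells, and 5076 and 5529 after LPS. The log2 change was 0.94 ± 0.06 in GFP (adjusted p = 8.5e-08) and 1.17 ± 0.06 in Nur77 cells (adjusted p = 1.8e-08). The rise in H3K27ac was smaller on this scale than the Pol II rise over the same genes, a difference between targets that was not tested. Clec5a (chr6:40572295-40587639) went from 1025 and 1116 to 1730 and 1612 tags in GFP cells and from 1176 and 1094 to 1552 and 1561 in Nur77 cells. Its change was 0.98 ± 0.06 (adjusted p = 1.5e-07) and 0.82 ± 0.06 (adjusted p = 6.0e-07). The region between genes near Clec5a (chr6:40592107-40597903), which contains an HA site, had 460 and 476 tags in untreated GFP cells and 848 and 759 after LPS, and 515 and 507 in untreated Nur77 cells and 817 and 770 after LPS. It rose by 1.11 ± 0.08 in the GFP line and by 0.99 ± 0.08 in the Nur77 line. At the Clec12a start (chr6:129348568-129355137) the values were 302 and 359, then 540 and 457, in GFP cells and 304 and 300.2, then 421 and 425, in Nur77 cells, with changes of 0.93 ± 0.09 and 0.84 ± 0.09. The higher-coordinate Clec4n region (chr6:123243271-123247512) had 21.8 and 25.5 tags in untreated GFP cells and 34.9 and 48.2 after LPS, against 76.5 and 65.8 and then 206 and 208 in Nur77 cells. In each of these regions the LPS libraries were above the untreated ones of the same line. Its changes were 1.10 ± 0.17 (adjusted p = 2.0e-04) and 1.89 ± 0.17 (adjusted p = 2.4e-06). This region contains the strong Clec4n HA site.

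Clec10a lost H3K27ac (chr11:70165544-70175507): 88.5 and 95.6 tags in untreated GFP cells and 23.5 and 48.0 after LPS, and 317 and 337 in untreated Nur77 cells and 119 and 171 after LPS. The change was -1.09 ± 0.25 in the GFP line (adjusted p = 0.0028) and -0.84 ± 0.25 in the Nur77 line (adjusted p = 0.013). The Nur77 call was lost without untreated library 2 (-0.78, adjusted p = 0.07), without LPS library 1 (-0.64, adjusted p = 0.089) and per kilobase (-0.33 ± 0.13, adjusted p = 0.056). The lower-coordinate Clec4n region (chr6:123226735-123230336) fell in the GFP line, from 112 and 117 tags to 59.8 and 49.3 (-0.73 ± 0.14, adjusted p = 7.6e-04), and per kilobase it was -0.15 ± 0.18 (adjusted p = 0.53). In the Nur77 line it had 151 and 118 tags untreated and 97.9 and 108 after LPS (-0.02 ± 0.14, adjusted p = 0.93). Clec2d, Clec7a and the second Clec12a region (chr6:129359904-129366612, 46.7 to 87.4 tags over the 8 libraries) did not pass in either line. In the Nur77 line the second Clec12a region changed by 0.48 ± 0.20 (adjusted p = 0.062). It passed as higher per kilobase (0.37 ± 0.13, adjusted p = 0.034), without input regions (0.51, adjusted p = 0.048) and with the stronger peaks alone (0.48, adjusted p = 0.043). Without untreated library 1 its change was 0.84. Clec7a passed as lower per kilobase in the GFP line (-0.39 ± 0.13, adjusted p = 0.029). The other 13 H3K27ac regions of the group were called in fewer libraries, 8 of them in 1, and held 5.75 to 36.0 tags. Without scaling between libraries the median of all regions was -0.32 in GFP and -0.33 in Nur77 cells for H3K27ac and -0.15 and -0.40 for Pol II, so changes here are relative to that shift. With no scaling, Clec2d (-0.44, adjusted p = 0.021 in GFP; -0.56, adjusted p = 0.0057 in Nur77) and, in the GFP line, Clec7a (-0.75, adjusted p = 0.01) passed as lower, as did the lower-coordinate Clec4n region in the Nur77 line (-0.37, adjusted p = 0.042).

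**Figure D3:**
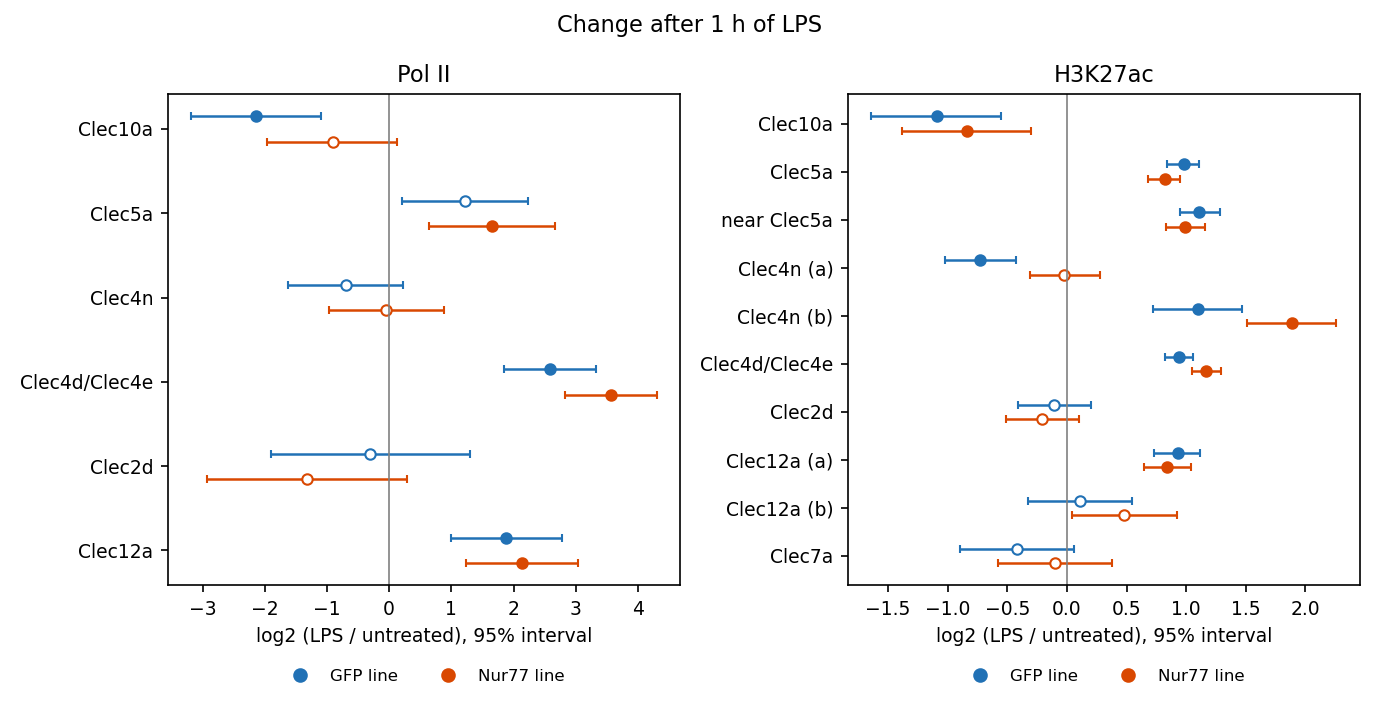
Log2 change of Pol II and H3K27ac after LPS in each line, with 95% intervals (limma); filled points passed the adjusted threshold, and letters order several regions of a gene along the chromosome. Both marks were higher over Clec4d/Clec4e and Clec12a (a) in both lines, and Clec10a was below 0 in all 4 comparisons. The Pol II values of Clec10a and Clec2d are descriptions, whatever the fill of their points, since their LPS libraries chose them.

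**Figure D4:**
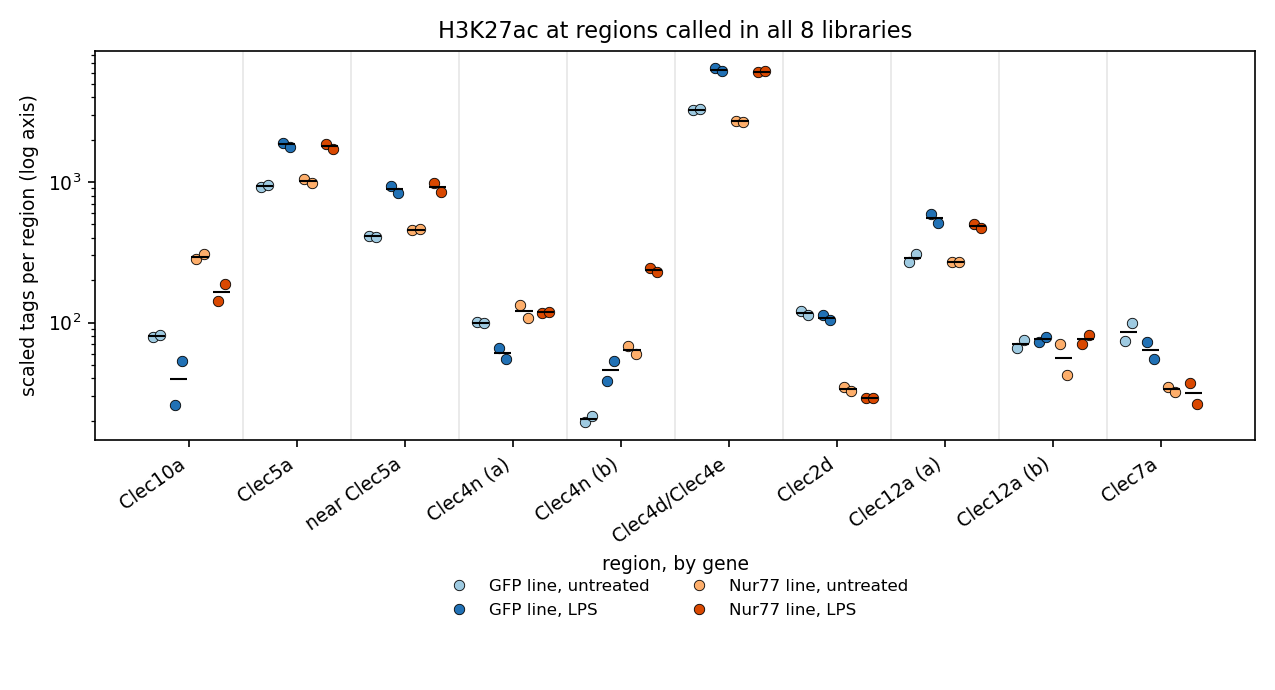
H3K27ac tags per region after scaling between libraries (log axis) at the 10 regions called in all 8 libraries; points are libraries, lines are means of 2. Clec10a and Clec4n (b) were higher, and Clec2d and Clec7a lower, in the Nur77 line in both conditions.

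Between the lines, H3K27ac was higher in Nur77 cells over Clec10a and over the higher-coordinate Clec4n region, and lower over Clec2d and Clec7a, both before and after LPS. The tag counts are those given above for Clec10a and Clec4n. Untreated, 2 of the 10 regions were higher and 3 lower, with 15.4% of all regions higher and 15.3% lower. After LPS 3 were higher and 2 lower, with 16.5% and 19.5%. Each of these comparisons shares its libraries with the LPS comparisons.

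Clec2d (chr6:129179666-129183575) had 134 and 133 H3K27ac tags in untreated GFP cells and 102 and 94.1 after LPS, and 39.3 and 36.1 in untreated Nur77 cells and 24.4 and 26.2 after LPS. All 4 Nur77 libraries lay below all 4 GFP libraries. The difference was -1.76 ± 0.14 untreated (adjusted p = 3.4e-06) and -1.86 ± 0.14 after LPS (adjusted p = 2.1e-06). The mean called length was 3.15 kb in untreated GFP and 1.44 kb in untreated Nur77 cells, and per kilobase the difference was -0.60 ± 0.15 (adjusted p = 0.015) untreated and -0.29 ± 0.15 (adjusted p = 0.21) after LPS. Clec7a (chr6:129469995-129473493) had 81.6 and 116 tags in untreated GFP cells and 66.3 and 49.9 after LPS, against 39.3 and 35.5 and then 31.1 and 23.6 in Nur77 cells. The lines did not overlap. The difference was -1.32 ± 0.22 untreated (adjusted p = 7.4e-04) and between -1.48 and -0.53 after LPS (95% interval, adjusted p = 0.0039). Without the 3 libraries called with HOMER's local filter left on, the difference after LPS was -0.79 (adjusted p = 0.071).

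Clec10a differed by 1.85 ± 0.25 untreated (adjusted p = 1.6e-04) and 2.11 ± 0.25 after LPS (adjusted p = 5.5e-05). Its mean called length was 2.61 kb in untreated GFP and 9.78 kb in untreated Nur77 cells, with 35.4 and 33.5 tags per kb, so the untreated difference per kilobase was -0.01 ± 0.13. After LPS it was 0.44 ± 0.13 per kilobase (adjusted p = 0.037). The higher-coordinate Clec4n region differed by 1.58 ± 0.17 untreated (adjusted p = 3.5e-05) and 2.37 ± 0.17 after LPS (adjusted p = 1.8e-06), and per kilobase by 1.24 ± 0.16 and 1.28 ± 0.16. The lower-coordinate Clec4n region was higher in Nur77 cells after LPS (0.97 ± 0.14, adjusted p = 2.0e-04). Clec4d with Clec4e was slightly lower in untreated Nur77 cells (-0.28 ± 0.06, adjusted p = 0.0027), a call lost per kilobase (-0.20 ± 0.09, adjusted p = 0.18) and without the 3 libraries with the local filter (-0.30, adjusted p = 0.063). Both Clec5a regions and both Clec12a regions did not pass, and their differences ran from -0.36 ± 0.20 to 0.16 ± 0.08.

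Pol II tags of untreated cells went the same way at Clec10a and Clec2d without passing the threshold. Clec10a had the values given above, all Nur77 libraries above all GFP libraries, and an untreated difference of 2.43 ± 0.45 (adjusted p = 0.11). Clec2d (chr6:129179744-129189994) had 784 and 251 Pol II tags in untreated GFP cells and 498 and 208 after LPS, and 41.0 and 44.9 in untreated Nur77 cells and 7.48 and 20.1 after LPS. All Nur77 values were below all GFP values. Its untreated difference was -3.50 ± 0.69 (adjusted p = 0.12). None of the 6 regions passed in untreated cells by limma (2 at an unadjusted p under 0.05), where 0.111% of all regions were higher and 0.0585% lower. Same-numbered Pol II libraries deviated together, and with the block Clec10a was called higher (adjusted p = 8.4e-04) and Clec2d lower (adjusted p = 0.024), where 1022 of 17081 regions were called. Without untreated Nur77 library 1 and with the block, Clec10a alone was called (2.45, adjusted p = 0.025). The mean called length of Clec2d was 7.95 kb in GFP and 1.70 kb in Nur77 cells, and per kilobase its difference was -1.14 ± 0.37 (adjusted p = 0.33), while Clec10a per kilobase was 1.82 ± 0.32 (adjusted p = 0.045). With no scaling, Clec10a was called (2.60, adjusted p = 0.05, just under the threshold before rounding).

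After LPS the Pol II difference, which chose the 2 genes, was 3.66 ± 0.45 for Clec10a and -4.53 ± 0.69 for Clec2d, given with no test. As tags per kilobase these were 0.78 ± 0.32 and -1.19 ± 0.37. Of the other 4 regions none passed (1 at an unadjusted p under 0.05, Clec4n at 1.03 ± 0.40), with 0.872% of all regions higher and 0.65% lower. Values for the other 3 ran from 0.29 ± 0.32 at Clec4d with Clec4e to 0.61 ± 0.44 at Clec5a.

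**Figure D5:**
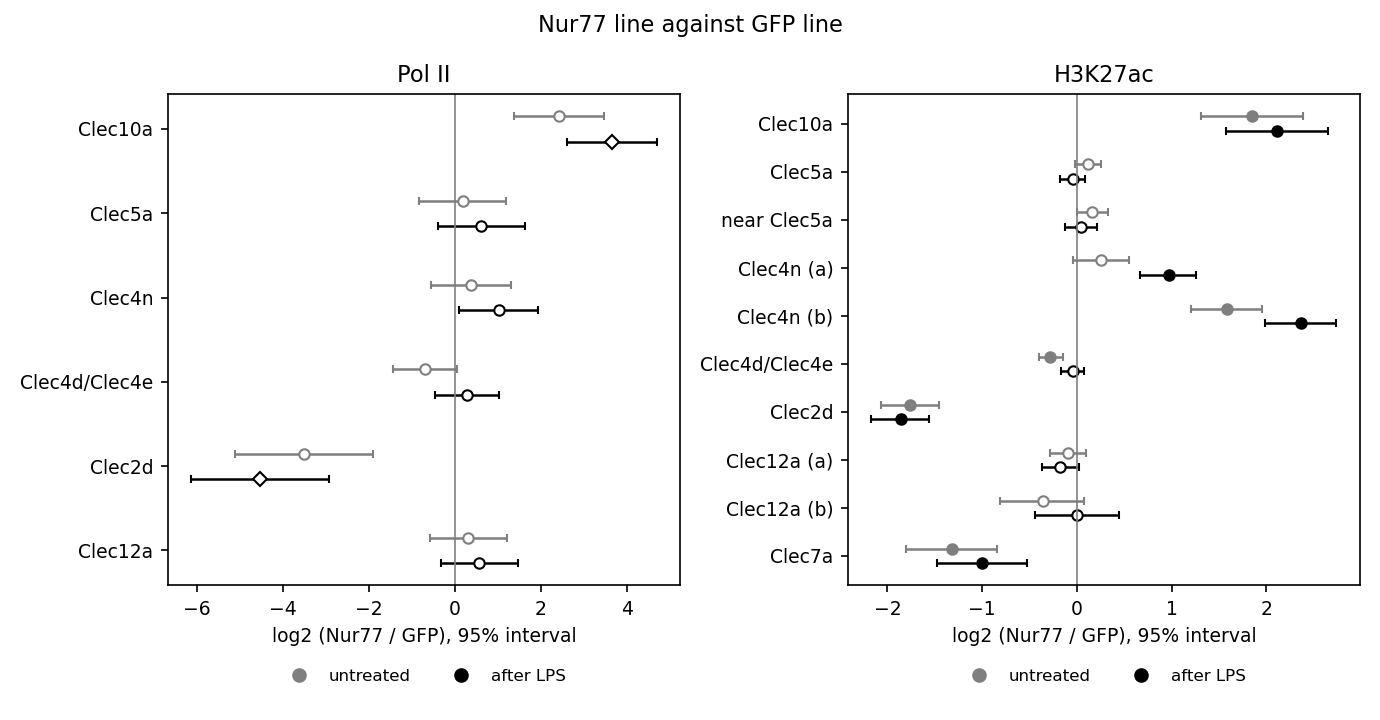
Log2 difference between the Nur77 and GFP lines in Pol II and H3K27ac, untreated and after LPS, with 95% intervals (limma); filled points passed the adjusted threshold and diamonds are values with no test. Clec10a was above 0 and Clec2d below 0 for both targets and in both conditions.

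Whether the lines responded differently to LPS was tested as the difference of the log2 changes. For Clec10a and Clec2d in Pol II this uses the difference that chose them, and no test is given. None of the other 4 Pol II regions passed (0 at an unadjusted p under 0.05), and none of all Pol II regions did, so the shares higher and lower were 0% and 0%, with 465 regions at an unadjusted p under 0.05. For Clec4d with Clec4e the difference was 0.98 ± 0.45 (95% interval -0.07 to 2.02), and for Clec10a it was 1.23 ± 0.64, as a description. None of the 10 H3K27ac regions passed either, with 0.118% of all regions higher and 0.476% lower. At an unadjusted p under 0.05 there were 3, beside 3508 of all 27094 regions: the higher-coordinate Clec4n region (0.79 ± 0.24, adjusted p = 0.19), the lower-coordinate one (0.71 ± 0.19, adjusted p = 0.14) and Clec4d with Clec4e (0.23 ± 0.08, adjusted p = 0.23).

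Genes that act downstream of these receptors were described from a list of 21, all with a Pol II region and with 20 distinct regions. After LPS 5 of the 20 Pol II regions were higher and 1 lower in GFP cells (10% and 8.55% of all regions), and 6 and 1 in Nur77 cells (15.2% and 15%), with list medians of 0.33 and 0.24 beside 0.01 for all regions. Malt1, the protease of the Card9 and Bcl10 complex, was the clearest, with a Pol II change of 2.89 ± 0.16 in GFP (adjusted p = 1.4e-04) and 2.42 ± 0.16 in Nur77 cells (adjusted p = 1.3e-04), and an H3K27ac change of 1.81 ± 0.08 and 1.38 ± 0.08. Per kilobase the Malt1 Pol II changes were 0.55 (adjusted p = 0.17) and 0.13 (adjusted p = 0.78). Of the 20 H3K27ac regions of the list, 8 were higher and 7 lower after LPS in GFP cells, where 27.5% and 25.5% of all regions were, and 7 and 8 in Nur77 cells, beside 28.5% and 27.1%. Between the lines, 10 were higher and 2 lower in untreated Nur77 cells (15.4% and 15.3% of all regions) and 8 and 2 after LPS (16.5% and 19.5%), with medians of 0.20 and 0.11 beside -0.00 and -0.01. Among the higher ones in untreated cells were Fgr (0.87 ± 0.08, adjusted p = 1.1e-05) and Ptpn11 (0.64 ± 0.09, adjusted p = 2.4e-04). Per kilobase Ptpn11 was at -0.09 (adjusted p = 0.64). Syk, the kinase next to the receptors, was among the lower ones. Its difference was -0.54 ± 0.07 untreated (adjusted p = 1.2e-04) and -0.89 ± 0.07 after LPS (adjusted p = 3.0e-06).

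Among 40 other C-type lectin genes, 7 had a Pol II region called in all libraries and 19 an H3K27ac region (17 regions). Their Pol II regions included none higher after LPS and 3 lower in GFP and 2 lower in Nur77 cells, beside 8.55% and 15% of all regions lower. Clec4a3, a neighbour of Clec4n, fell in both lines (-1.80 ± 0.26, adjusted p = 0.0036 in GFP; -1.64 ± 0.26, adjusted p = 0.0035 in Nur77), with -0.54 (adjusted p = 0.17) per kilobase in GFP cells. For H3K27ac 1 was higher and 9 lower in GFP cells (27.5% and 25.5% of all regions), and 4 higher and 7 lower in Nur77 cells (28.5% and 27.1%), with list medians of -0.69 and -0.41. Clec4a3 fell by 0.99 ± 0.10 and 1.02 ± 0.10 and Clec4a2, of the same cluster, by 1.24 ± 0.12 and 1.22 ± 0.12 on the log2 scale. On chr6, H3K27ac thus fell at Clec4a3 and Clec4a2 and rose over Clec4d with Clec4e in both lines. Clec4n, between them, had a region that rose in both lines and another that fell in the GFP line. The Clec4a2 region and that of Clec4d with Clec4e lay over input calls. H3K27ac changes after LPS at Clec4a1, Clec4a4 and Clec4b2 are not reported here. In the HA data, 2 of the 16 regions of this list were higher after LPS, Olr1 (2.04 ± 0.27, adjusted p = 0.0075) and Ly75 (2.17 ± 0.35, adjusted p = 0.014), and none lower, beside 3.28% and 1.35% of all regions. Without both libraries numbered 3 the Olr1 change was 1.86 (adjusted p = 0.15) and that of Ly75 was 2.31 (adjusted p = 0.14), so the calls were lost at changes of similar size. They were also lost without untreated library 1 (adjusted p = 0.057 and 0.081), without LPS library 1 (0.077 and 0.086) and with no scaling (0.31 and 0.33).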

How the data were processed

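ChIP-seq peak files of 26 libraries (22 ChIP, 4 input) were analysed. Per the submitters' processing notes, HISAT2 2.1.0 did the alignment (build mm10) and HOMER the peak calling (its version is not given in the sources used here). HA ChIP used DSG with formaldehyde, per the labels' protocols. The only values used were the deposited normalised tag counts, a signal scaled to 10 M tags per library, per the file headers; these are not raw counts. Untreated HA library 3 and 3 H3K27ac libraries (untreated GFP 1, LPS GFP 1, untreated Nur77 1) had other calling settings, per the file headers.

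Peaks sharing at least 1 bp were merged per target. Regions with a peak in every library of the target were scaled by trimmed means (30% of log ratios, 5% of levels trimmed), transformed as log2(tags + 1) and tested with limma 3.58.1 in R 4.3.3 with a trend, over all groups of a target, with Benjamini-Hochberg adjustment at 0.05. The requirement of a peak in every library leaves out regions lost in a group. Tags were summed over called peaks, so values move with called length; tags per kilobase is the alternative. Fits were also run on simulated data with independent libraries, with no outcome given here. That simulation does not cover same-numbered libraries that deviate together. Groups came from the labels. Same-numbered libraries deviated together for HA (correlations of 0.4805 to 0.8336 in 3 pairs) and Pol II (0.3473 to 0.6311), so for these the blocked value is given where it changes a call; the labels do not state what a number marks. For H3K27ac they did not (-0.1024 to 0.0885).

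Genes were taken from RefSeq (GRCm38.p6). Coordinates are as deposited; exons and introns were not analysed here. All tested regions of the 8 genes are named, with up to 3 genes of each list per comparison and the 3 most alike Pol II profiles; some items under these rules are not reported here. The members and lists were chosen with earlier results of these data known. Alternatives were a pseudocount of 5, no scaling, looser and stricter region rules, no input regions, the block, and leaving out libraries.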

Additional observations from a re-analysis of the deposited data

How the results depend on the processing

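Of 1461 region values of the 8 genes under an alternative, 59 changed direction, 28 of them other than by leaving out 1 library, and 2 of the 59 had a call. These 2 include the Clec10a Pol II change in GFP cells, which is a description only. Counts of called regions changed as follows. With the replicate block 2 HA sites were called, with both HA libraries numbered 3 left out as well 3, and over genes alone 4 HA sites had a call in every library. For Pol II after LPS, tags per kilobase left 1 call in GFP cells, leaving out each library gave 1 to 3, and without regions over an input call 1 remained to be called in Nur77 cells. The counts in GFP cells include Clec10a where it passed, which is a description only. For Pol II between untreated lines there was 1 call with no scaling, 1 per kilobase, 2 with the block and 1 with the block and without untreated Nur77 library 1; the last setting also gave 1 after LPS (Clec5a, 0.61, adjusted p = 0.047). With the stronger peaks alone (at or above each library's median) 3 Pol II regions had a call in every library, and H3K27ac differed between the lines at 2 regions untreated and 2 after LPS. Per kilobase it differed at 3 untreated. The crossed replicate block, chosen after seeing the data, gave 5 H3K27ac calls between untreated lines, as did the uncrossed one. The replicate block changed no other call of a count by over 1.5 times. The cause of these changes was not tested. Tags per kilobase are divided by called length and scaled anew, and the stricter peak rule tests fewer regions.

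Directions that changed are given first as log2 values per kilobase. Clec10a Pol II in GFP cells after LPS went to 0.10, and its H3K27ac between untreated lines to -0.01. The H3K27ac value was called in the report, while the Pol II value is a description only. Clec4n Pol II after LPS in Nur77 cells went to 0.35 and the Clec10a Pol II response to -1.04. H3K27ac after LPS in Nur77 cells went to 0.27 at Clec4n and 0.11 at Clec2d. H3K27ac between untreated lines went to -0.02 near Clec5a and 0.03 at Clec12a. Between lines after LPS it went to -0.23 near Clec5a and 0.03 at Clec4d with Clec4e, and the Clec2d response to 0.32. Of the listed genes Bcl10 went to -0.23 and -0.00 for Pol II and Ptpn11 to -0.09 for H3K27ac. With no scaling the second Clec12a region had -0.22 (LPS, GFP) and -0.05 (lines, LPS) and that near Clec5a -0.02. Without the libraries numbered 3, with or without the block, HA had 0.09 near Clec12a and 0.01 at Clec7a. Clec5a Pol II between untreated lines was -0.07 with the block and without library 1. For H3K27ac at Clec4n in Nur77 cells, 0.01 was found without input regions and 0.14 without the libraries with the local filter. Without these, line differences after LPS were 0.02 at Clec5a, 0.00 at Clec4d with Clec4e and -0.03 at Clec12a, and responses -0.27 at Clec10a and 0.13 at Clec12a. The second Clec12a region gave -0.00 with peaks in at least 1 library of each group and without input regions.

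Leaving out 1 library at a time changed the sign of uncalled values only. HA ranges were -0.42 to 0.12 near Clec10a, -0.02 to 0.51 and -0.04 to 0.14 at and near Clec4n, -0.17 to 0.55 and -0.26 to 0.04 at and near Clec12a, and -0.36 to 0.11 at Clec7a. For Pol II they were -1.20 to 0.60 (Clec2d, LPS in GFP), -0.47 to 0.40 (Clec4n, LPS in Nur77), -0.36 to 0.72 and -0.31 to 0.94 (Clec5a and Clec12a between untreated lines), and -0.11 to 0.99 and -0.36 to 0.89 (their responses). H3K27ac gave -0.18 to 0.15 (Clec4n) and -0.36 to 0.13 (Clec7a) after LPS in Nur77 cells, -0.11 to 0.01 and -0.05 to 0.13 (Clec5a and near it) and -0.11 to 0.11 (second Clec12a region) between lines after LPS, and responses of -0.24 to 0.75 (Clec10a) and -0.21 to 0.04 (Clec12a). HA libraries held 6.41 to 18.2 M tags and Pol II libraries 11.9 to 23.1 M, with 3 and 2 libraries a group; how depth bears on the calls was not tested.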
